A study of Mus musculus with 18 samples.

Results

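The circadian clock genes read here were Per1, Per2, Per3 and Cry1 (repressors of the core loop), Arntl and Clock (its activators), Nr1d1 and Nr1d2 (the REV-ERB receptors), and Dbp and Tef (PAR bZIP output factors). They were chosen by name, and each of their probes on the array was taken. All 10 genes were present among the 34509 gene symbols of the first of 2 deposited tables, with 17 probes. Probes of 6 of the 10 were found in the second table by their search key. The mice were 2 months old and of 5 strains, B6, BALB/C, DBA1, 129/svj and NZW, with 3 mice in each strain, and each of them had been challenged with anti-GBM antibody, which binds the glomerular basement membrane and produces an immune nephritis. B6 and BALB/C are labelled as resistant to this nephritis, and DBA1, 129/svj and NZW as sensitive. RNA of kidney cortex was hybridised to Illumina Mouse WG-6 BeadChips, on which each probe is read as the mean intensity of its beads. The first table held the 6 arrays of B6 and NZW, and the second the 12 arrays of BALB/C, DBA1 and 129/svj, in which mouse 1 of each strain had been hybridised again. No unchallenged mice were among the samples, and the 3 mice of a strain were the only measure of its spread. The hour of the day at which each kidney was taken is not given in the sources used here, so strain and hour of collection cannot be told apart.

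In mammalian cells, CLOCK and ARNTL (also called BMAL1) bind E-box elements as a pair and drive transcription of the Per and Cry genes, whose proteins return to block the pair. The same pair drives Nr1d1 and Nr1d2, whose products repress Arntl, and Dbp, whose product together with TEF acts on D-box elements. In kidney, as in liver, Arntl transcripts therefore peak at nearly the opposite time of day from those of Dbp, Nr1d1 and the Per genes, and clock outputs there include regulators of sodium handling and drug metabolism. Per1 transcription also responds directly to glucocorticoids.

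The promoters that carry these elements are shown because the genes compared below were grouped by the loop. The 250 bases upstream of the start of transcription (RefSeq, GRCm38.p6) are printed 5′ to 3′ in the direction of transcription for 3 of the genes and for Ciart, a CLOCK-ARNTL repressor taken from a list of other loop genes. Capitals mark the E-box CACGTG in Per1, Tef and Ciart and the D-box TTATGTAA in Per3. The windows are Per1 at chr11:69098699-69098948 on the plus strand, Tef at chr15:81811164-81811413 on the plus strand, Ciart at chr3:95882229-95882478 on the minus strand and Per3 at chr4:151044666-151044915 on the minus strand.
Per1: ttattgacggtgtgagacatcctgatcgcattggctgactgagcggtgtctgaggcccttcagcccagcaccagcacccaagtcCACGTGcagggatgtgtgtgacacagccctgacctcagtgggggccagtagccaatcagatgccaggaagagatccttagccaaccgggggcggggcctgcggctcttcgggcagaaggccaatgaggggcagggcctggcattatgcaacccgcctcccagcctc
Tef: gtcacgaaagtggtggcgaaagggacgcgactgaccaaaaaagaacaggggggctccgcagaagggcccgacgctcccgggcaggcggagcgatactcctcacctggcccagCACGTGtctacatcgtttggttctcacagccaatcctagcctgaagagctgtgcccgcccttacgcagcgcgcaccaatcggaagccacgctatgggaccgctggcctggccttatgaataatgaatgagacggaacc
Ciart: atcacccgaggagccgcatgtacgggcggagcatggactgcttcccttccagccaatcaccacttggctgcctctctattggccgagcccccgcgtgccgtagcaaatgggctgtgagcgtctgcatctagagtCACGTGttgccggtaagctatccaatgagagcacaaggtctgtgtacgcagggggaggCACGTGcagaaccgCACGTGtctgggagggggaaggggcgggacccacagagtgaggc
Per3: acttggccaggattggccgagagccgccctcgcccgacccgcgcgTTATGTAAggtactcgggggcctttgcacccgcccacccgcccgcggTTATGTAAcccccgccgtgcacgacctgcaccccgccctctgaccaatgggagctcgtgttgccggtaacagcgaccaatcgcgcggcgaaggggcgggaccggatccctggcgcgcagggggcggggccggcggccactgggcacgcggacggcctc

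Windows from 250 bases before to 50 bases after a start were searched on both strands. The E-box CACGTG was found in 7.15% of 32851 windows of all genes, the D-boxes TTACGTAA or TTATGTAA in 1.06%, and the REV-ERB/ROR core, TAGGTCA or TGGGTCA, in 6.45%. Of the 10 clock genes 9 had a window, with 14 windows between them, and the E-box lay in 4 windows of 3 genes (Per1, Tef and Cry1). Counted from the start of transcription, the Per1 E-box began at position -166, the Cry1 E-box at -60 and the printed Tef E-box at -138. The Per3 window held the D-box 2 times, and 1 of the Arntl windows held the REV-ERB/ROR core 30 bases after the start. Ciart had 3 E-boxes. The windows of Cry2 and Usp2, list genes described below, were also searched and held none of these motifs. The windows of Dbp, Nr1d1, Nr1d2 and Clock held none of these motifs. Per2 was not searched.

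Arrays of the first table were close to each other, with correlations of 0.988 to 0.993 between mice of a strain over all tested probes. In the second table, DBA1 mouse 3 correlated at 0.957 to 0.960 with the other DBA1 arrays and 129/svj mouse 3 at 0.959 to 0.972 with its own, against 0.975 to 0.985 for the other pairs of mice within a strain. In DBA1 mouse 3, 1.30% of tested probes lay more than 1 log2 unit from the strain mean, and in 129/svj mouse 3 it was 1.09%, while the other 13 mice lay between 0.0239% and 0.499%. Nr1d1, Per3 and Tef of that table are therefore also given without these mice. Each clock gene value in B6 and NZW rested on 15 to 61 beads, with a median standard error of 5.47% of the signal. In BALB/C, DBA1 and 129/svj it rested on 34 to 62 beads, with a median of 5.39%. Levels below are log2 normalized signals, so that 1 unit is a doubling. They were compared between samples, since the signals of different probes are not on a common scale of abundance. Where signals of a marker list are summed, the brightest probe is named to show which one weighs most in the sum.

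Per1, Dbp, Nr1d1, Per2 and Tef were lower in kidney cortex of B6 than of NZW mice, by 1.54 log2 units for Per1 and by 0.43 for Tef. None of the 9 genes that could be tested was called higher in B6, and 2 of 12 probes, of Clock and Per3, had a positive difference. Of 12 tested probes, 5 passed (limma, Benjamini-Hochberg adjusted p under 0.05), each for another gene. Among all 16756 tested probes 18.8% passed, 9.61% lower in B6 and 9.23% higher in B6. The median difference, B6 minus NZW, was -0.32 over the 12 clock gene probes and -0.04 over all tested probes. In bulk tissue, fewer cells that express a gene and less RNA per cell cannot be told apart.

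Of the repressor arm, Per1 had the largest difference. Its levels were 6.21, 6.08 and 5.95 in the 3 B6 mice and 7.93, 7.22 and 7.72 in the 3 NZW mice. The deposited Per1 intensities behind them were 143, 136 and 118 in B6 and 337, 217 and 243 in NZW. Every NZW value was above every B6 value on both scales. Per1 was 2.92-fold higher in NZW (B6 minus NZW -1.54, SE 0.18, 95% confidence interval -1.96 to -1.13, adjusted p = 0.0005). Its B6 signals were close to background, and without background correction the Per1 difference was -0.996.

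Per2, the partner of Per1 in the repressor complex, was read by 2 probes. The brighter probe gave 8.75, 8.64 and 8.61 in B6 and 9.34, 9.55 and 9.58 in NZW, and within each strain the mice lay close together. Its difference was -0.83 (SE 0.11, adjusted p = 0.0012), 1.77-fold higher in NZW. The other Per2 probe was above background in no mouse. Per3, which is not required for rhythmicity in mice, differed from this pattern, with 7.67, 8.14 and 8.04 in B6 and 8.07, 7.62 and 8.07 in NZW. The strains overlapped, and the Per3 difference of 0.03 had an interval of -0.36 to 0.42 (adjusted p = 0.92). A second Per3 probe and the only Cry1 probe were above background in none of the 6 mice, so no level of Cry1 was obtained.

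Nr1d1, which encodes REV-ERBα, stood at 8.44, 8.57 and 8.32 in B6 and at 9.24, 9.50 and 9.27 in NZW. The highest B6 mouse was below the lowest NZW mouse, and Nr1d1 was 1.86-fold higher in NZW (-0.89, SE 0.12, adjusted p = 0.0012). The Nr1d1 search key is also held by a probe listed under a predicted locus, LOC100047427, and whether the Nr1d1 probe reads that transcript too was not tested. Nr1d2, its close homologue REV-ERBβ, was at 6.63, 7.06 and 7.33 in B6 and 7.14, 7.21 and 7.79 in NZW. These ranges overlapped, and the Nr1d2 difference of -0.37 (95% interval -0.88 to 0.13, adjusted p = 0.29) did not pass. Its second probe was above background in no mouse.

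The PAR bZIP output genes were both lower in B6. Dbp, an activator of detoxification genes in liver and kidney, was at 11.12, 11.38 and 11.46 in B6 and 12.32, 12.33 and 12.50 in NZW. Its deposited intensities were 2300, 2746 and 2552 in B6 and 5738, 6004 and 5151 in NZW. The groups were well apart, and Dbp was 2.09-fold higher in NZW (-1.06, SE 0.12, 95% interval -1.35 to -0.78, adjusted p = 0.00049). Tef, which encodes a related PAR bZIP factor, was at 12.43, 12.58 and 12.61 in B6 and 12.89, 12.97 and 13.06 in NZW by its brightest probe. The Tef shift was smaller, 1.35-fold (-0.43, SE 0.11, adjusted p = 0.025). It was no longer called without B6 mouse 1, 2 or 3 or NZW mouse 3 (adjusted p = 0.1, 0.0798, 0.0558 and 0.068), nor with the mouse number as a block (adjusted p = 0.0514). The other 2 Tef probes were close to background, being detected in 3 and 4 of the 6 mice, and gave differences of -0.23 (adjusted p = 0.33) and -0.08 (adjusted p = 0.76).

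Of the activator arm, Arntl was dim and overlapped between the strains. Its levels were 6.14, 5.57 and 5.49 in B6 and 5.90, 6.12 and 5.62 in NZW. The Arntl difference of -0.15 had an interval of -0.60 to 0.30 (adjusted p = 0.65). Its deposited intensities, 101 to 139, were close to background, and without background correction the difference was -0.07. The interval therefore does not bound the change in Arntl transcript. Clock was at 9.40, 9.38 and 9.34 in B6 and 9.22, 8.81 and 9.37 in NZW by its brightest probe, with NZW mouse 3 inside the B6 range. That difference of 0.24 (95% interval -0.10 to 0.58, adjusted p = 0.31) did not pass. A dimmer Clock probe, detected in 3 mice, had the opposite sign (-0.27, adjusted p = 0.16), and another was above background in no mouse. With single mice left out, the difference of the brightest Clock probe ranged from 0.08 to 0.36, lowest without NZW mouse 2. That of Nr1d2 ranged from -0.53 to -0.17, smallest without NZW mouse 3. That of Arntl ranged from -0.35 to -0.03, smallest without B6 mouse 3. The Per3 difference ranged from -0.12 to 0.17, so that its sign turned. The sign of the dim Tef probe detected in 4 mice turned as well (-0.15 to 0.05).

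**Figure D1:**
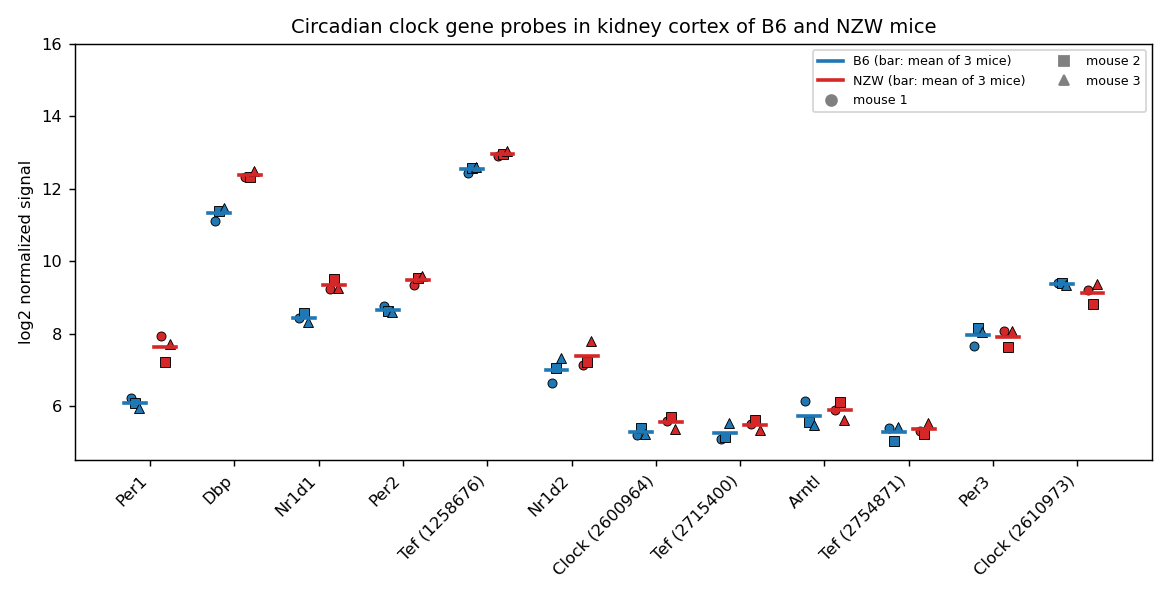
Log2 normalized signal (vertical axis) of the clock gene probes in the 3 B6 and 3 NZW mice, by mouse, with bars at the strain means and probe numbers in brackets where a gene had several tested probes. The probes of Per1, Per2, Nr1d1 and Dbp and the brightest Tef probe separate the strains, with NZW higher in each, while the other 2 Tef probes and those of Per3, Nr1d2, Arntl and Clock overlap.

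The calls for Per1, Dbp, Nr1d1 and Per2 did not depend on any of the 16 other settings tried in the B6 and NZW table. Over these settings the Per1 difference ranged from -1.75 to -0.996, that of Dbp from -1.26 to -0.97, that of Nr1d1 from -1.01 to -0.79 and that of Per2 from -0.96 to -0.74. The highest adjusted p among the 4 genes was 0.0304, for Per1. Scaling each array to its 75th percentile moved the median difference of all tested probes to -0.13, and 37.3% of all calls were then higher in B6, against 49.0% in the quantile normalized values. Each of the 4 differences was larger than that shift under every one of these settings.

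A list of 17 other loop genes was read in the same mice. Of these 16 had a probe here and 9 were tested, of which none was called higher and 2 lower in B6 (Ciart and Cry2), where 18.8% of all tested probes passed in either direction, with a median difference of -0.48 against -0.04 for all tested probes. Ciart, the repressor whose promoter with 3 E-boxes is shown above, was at 5.51, 5.45 and 5.16 in B6 and 7.93, 7.29 and 7.63 in NZW. It was detected in 2 of the 3 B6 mice and every NZW mouse, and was 4.73-fold higher in NZW (-2.24, SE 0.17, adjusted p = 4.07e-05). The size rests on B6 values close to background, and without background correction it was -1.34. Cry2, a partner of the PER proteins, was at 7.41, 7.16 and 6.85 in B6 and 7.78, 8.02 and 8.05 in NZW, a 1.75-fold difference (-0.81, SE 0.16, adjusted p = 0.0083). Genes tested and not called included Rora (-0.22), Bhlhe40 (-0.45), Csnk1d (-0.48), Csnk1e (-0.19), Fbxl21 (-0.52) and Btrc (0.32). Hlf, another PAR bZIP factor, and Bhlhe41, Arntl2, Rorb and Timeless were above background in no mouse.

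Of 17 clock-controlled and kidney output genes 12 were tested, with 1 higher and 3 lower in B6, beside 9.23% and 9.61% of all tested probes, and a median difference of -0.09. Usp2, a deubiquitinase with a strong daily rhythm in many tissues, was at 10.74, 10.74 and 10.66 in B6 and 11.41, 11.60 and 11.54 in NZW (-0.80, SE 0.10, adjusted p = 0.0009). Ppara, the receptor that regulates fatty acid oxidation, was at 8.60, 8.08 and 8.25 in B6 and 9.19, 9.97 and 9.47 in NZW (-1.23, SE 0.21, adjusted p = 0.0043). Upp2, a uridine phosphorylase, was also lower in B6 (-1.10, adjusted p = 0.0012), at 5.39, 5.44 and 5.46 against 6.59, 6.80 and 6.22, a difference that was -0.58 without background correction. Leo1, a subunit of the PAF1 transcription elongation complex, was the member that was higher in B6, at 8.06, 7.93 and 8.02 against 7.03, 7.34 and 7.06 (0.86, SE 0.12, adjusted p = 0.0013). The sodium channel subunit Scnn1a (0.10, adjusted p = 0.65) and the vasopressin receptor Avpr2 (0.07, adjusted p = 0.80) did not pass.

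Because Per1 also responds to glucocorticoids, 12 glucocorticoid-responsive genes were read. All 12 were tested, with 1 higher and 3 lower in B6, beside the same background shares of 9.23% and 9.61%, and a median difference of -0.52. Mt2, a metallothionein, was 1.81-fold higher in B6 (9.46, 9.05 and 8.90 against 8.16, 8.38 and 8.30, adjusted p = 0.0056). Sgk1, a kinase of sodium transport, was lower in B6 (12.18, 12.29 and 12.13 against 13.09, 12.53 and 13.19, difference -0.74, adjusted p = 0.019). So were Nfkbia, the NF-κB inhibitor (-0.62, adjusted p = 0.038), and Errfi1, an inhibitor of EGF receptor signalling (-0.49, adjusted p = 0.014). Without background correction the Nfkbia difference was -0.31. The Sgk1 call was lost without B6 mouse 1 or 3 or NZW mouse 1 or 3 (adjusted p = 0.0625, 0.0665, 0.0649 and 0.0613). The Nfkbia call was lost without any 1 of the B6 mice or without NZW mouse 1 or 2 (adjusted p from 0.0694 to 0.119), and the Errfi1 call without B6 mouse 3 (adjusted p = 0.0605). Fkbp5, a gene widely used as a readout of glucocorticoid receptor activity, did not pass (0.33, adjusted p = 0.21), and neither did Tsc22d3 (-0.69, adjusted p = 0.12) nor Dusp1 (-0.67, adjusted p = 0.0508). Whether glucocorticoids had a part in the Per1 difference was not tested.

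**Figure D2:**
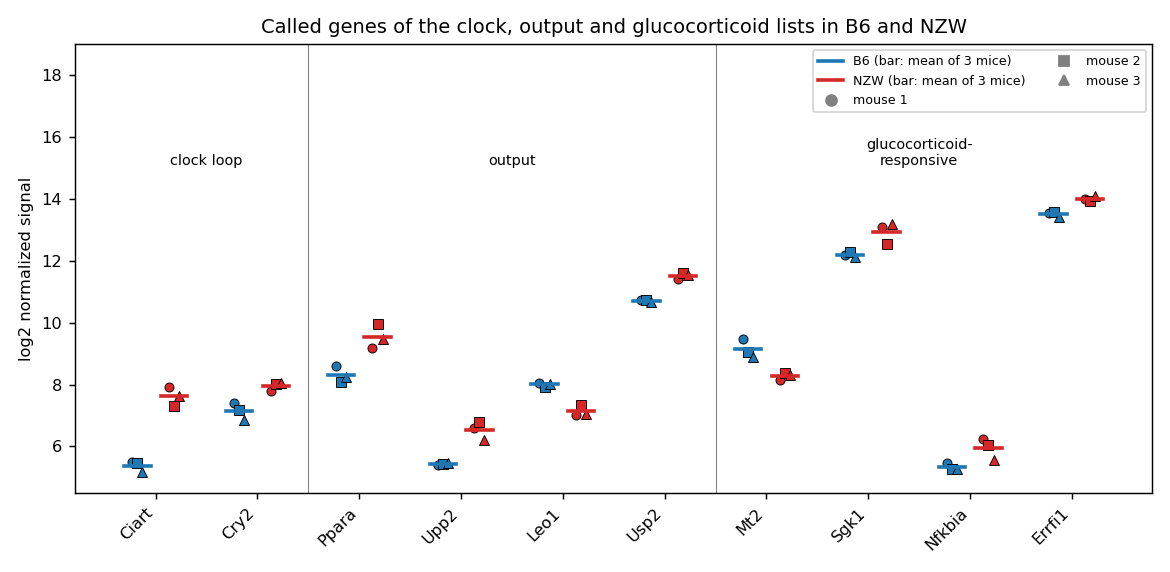
Log2 normalized signal (vertical axis) of the called genes of the loop, output and glucocorticoid lists in the 3 B6 and 3 NZW mice, by mouse, with bars at the strain means. Leo1 and Mt2 are higher in B6 and the other 8 genes are higher in NZW. The lowest NZW value of Nfkbia, 5.57 in mouse 3, lies closest to the B6 range.

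Markers of kidney cell types and of injury were read in the same mice, beside the 18.8% of all tested probes that were called. Of 10 proximal tubule markers 2 were lower in B6, Cubn (-0.60) and Miox (-0.40), and the summed signal of the list was 81491, 81134 and 94625 in B6 and 101083, 102567 and 106542 in NZW, with the Miox probe the brightest. Of 8 distal nephron markers 1 was higher in B6 (Slc12a3, 1.46). That list summed to 42681, 43314 and 44480 in B6 and 38504, 30095 and 34559 in NZW, with the Umod probe the brightest. Of 4 podocyte markers tested 1 was lower in B6. The podocyte list summed to 9281, 10226 and 9541 in B6 and 8771, 10777 and 9986 in NZW, with the Podxl probe the brightest. Of 10 leukocyte markers 7 were tested and none was called, while Ptprc and Itgam were among those above background in no mouse. Their summed signals were 2546, 7001 and 4334 in B6 and 2951, 2559 and 3557 in NZW, and the S100a8 probe was the brightest. Of 5 tubule injury markers with a probe, 4 were tested. Havcr1 was lower in B6 (-2.77, adjusted p = 0.013), and Lcn2 (1.80), Timp1 (1.86) and Spp1 (0.69) were higher in B6. The summed injury marker signal was 15531, 15595 and 7813 in B6 and 8251, 6340 and 7090 in NZW, with the Spp1 probe the brightest, and Krt20 was above background in no mouse. The part of these cell type and injury differences in the clock gene differences was not tested.

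Mice within B6 and within NZW differed less in Per2, Nr1d1, Dbp and the brightest Tef probe than in Arntl and Nr1d2. The pooled standard deviation between mice of a strain was 0.09 for the brightest Tef probe, 0.11 for Per2, 0.14 for Nr1d1, 0.14 for Dbp and 0.21 for Clock, against a median of 0.16 over all tested probes. It was 0.20 and 0.19 for the other Tef probes, 0.25 for Per3, 0.28 for Per1, 0.31 for Arntl and 0.36 for Nr1d2. B6 mouse 1 had the highest Arntl of its strain (0.41 above the strain mean) and the lowest Dbp (-0.20), Nr1d2 (-0.38) and Tef (-0.11), but also the highest Per1 (0.13) and Per2 (0.09), with Nr1d1 at its strain mean. NZW mouse 3 had the lowest Arntl of its strain (-0.26) and the highest Dbp (0.12), Nr1d2 (0.41), Tef (0.08) and Per2 (0.09), with Per1 at 0.10 and Nr1d1 at -0.07. These are 2 mice picked after their values were seen, and the deviations of Dbp and Tef are within 0.20 log2 units.

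**Figure D3:**
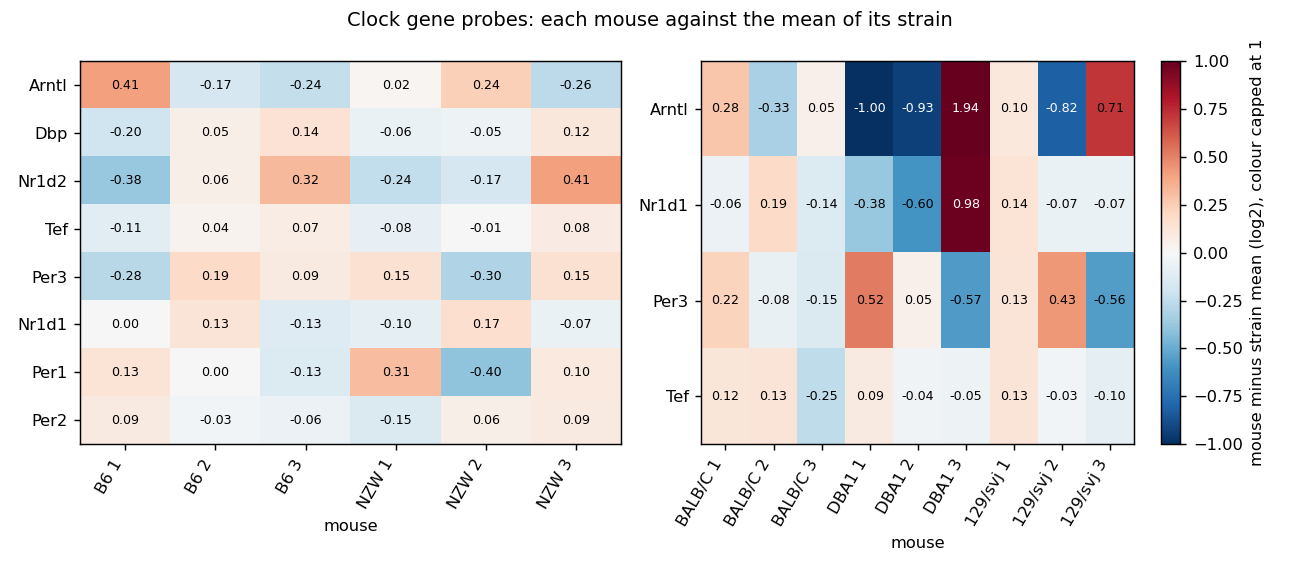
Difference between each mouse and the mean of its strain in log2 units (colour, capped at 1, with the value printed in each cell), for clock gene probes (rows) and mice (columns), with B6 and NZW at left and the other strains at right. DBA1 mouse 3 stands out, with Arntl 1.94 and Nr1d1 0.98 above and Per3 0.57 below its strain mean.

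In BALB/C, DBA1 and 129/svj mice, no clock gene passed the test between strains. Of the 6 genes with a probe in that table, Clock and Cry1 were above background in no mouse, and Arntl, Nr1d1, Per3 and Tef were tested. The keys of the Clock, Per3 and Nr1d1 rows are each held by several probes of the B6 and NZW table, which for the Nr1d1 row include a probe listed under LOC100047427. Which of these probes such a row stands for is not known, so the row matched to Nr1d1 may be that of LOC100047427. None was called in any of the 3 comparisons. Among 15818 tested probes, 5.75% were called between BALB/C and DBA1, 4.82% between BALB/C and 129/svj and 4.48% between DBA1 and 129/svj. At an unadjusted p under 0.05 none of the 4 probes passed in any of the 3 comparisons either, by limma or by Student's t-test. The study's methods name this t-test for its data in general and refer to an earlier study for the arrays. Dbp, Per1, Per2, Nr1d2 and the bright Tef probe, which include 4 of the 5 probes called between B6 and NZW, had no matched probe there, so those differences could not be compared across the tables.

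The row matched to Nr1d1 was at 8.79, 9.04 and 8.71 in BALB/C, at 8.60, 8.38 and 9.96 in DBA1 and at 8.82, 8.62 and 8.62 in 129/svj. DBA1 mouse 3 was above every other mouse, and the remaining 8 lay between 8.38 and 9.04. The differences were -0.14 for BALB/C minus DBA1 (95% interval -0.90 to 0.63, adjusted p = 0.89), 0.16 for BALB/C minus 129/svj (adjusted p = 0.90) and 0.29 for DBA1 minus 129/svj (adjusted p = 0.82). Without DBA1 mouse 3 the first became 0.35 (adjusted p = 0.28) and the last -0.20 (adjusted p = 0.63), so that both changed sign. Without 129/svj mouse 3, BALB/C minus 129/svj was 0.12 (adjusted p = 0.95) and DBA1 minus 129/svj 0.26 (adjusted p = 0.82). Beside these, the B6 minus NZW difference in Nr1d1 was -0.89, in other mice and another table.

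Per3 was at 9.29, 8.99 and 8.92 in BALB/C, 9.39, 8.92 and 8.30 in DBA1, and 9.19, 9.50 and 8.50 in 129/svj. Mouse 3 was the lowest of each strain. The differences were 0.19 for BALB/C minus DBA1 (adjusted p = 0.81), 0.00 for BALB/C minus 129/svj (adjusted p = 1.0) and -0.19 for DBA1 minus 129/svj (adjusted p = 0.88). Without 129/svj mouse 3, BALB/C minus 129/svj was -0.28 (adjusted p = 0.77) and DBA1 minus 129/svj -0.47 (adjusted p = 0.48), and without DBA1 mouse 3, BALB/C minus DBA1 was -0.09 (adjusted p = 0.91) and DBA1 minus 129/svj 0.09 (adjusted p = 0.93). Leaving out either mouse gave no call for any clock gene.

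Arntl was detected in 3 of the 9 mice. It was at 5.77, 5.17 and 5.54 in BALB/C, 5.24, 5.31 and 8.18 in DBA1, and 5.95, 5.03 and 6.56 in 129/svj. A single mouse, DBA1 mouse 3, lay far above all others, and 129/svj mouse 3 was next. The differences were -0.75 for BALB/C minus DBA1 (95% interval -2.30 to 0.81, adjusted p = 0.64), -0.35 for BALB/C minus 129/svj (-1.91 to 1.20, adjusted p = 0.88) and 0.39 for DBA1 minus 129/svj (-1.16 to 1.95, adjusted p = 0.89). Without either DBA1 mouse 3 or 129/svj mouse 3, Arntl was above background in too few mice to be tested. The matched Tef probe, the dim one, was detected in 6 of 9 mice, ranged from 5.35 to 5.95, and differed by -0.18, -0.22 and -0.04 in the 3 comparisons (adjusted p = 0.58, 0.56 and 0.96). Without DBA1 mouse 3 these Tef differences were -0.21, -0.22 and -0.01, and without 129/svj mouse 3 they were -0.18, -0.27 and -0.09.

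**Figure D4:**
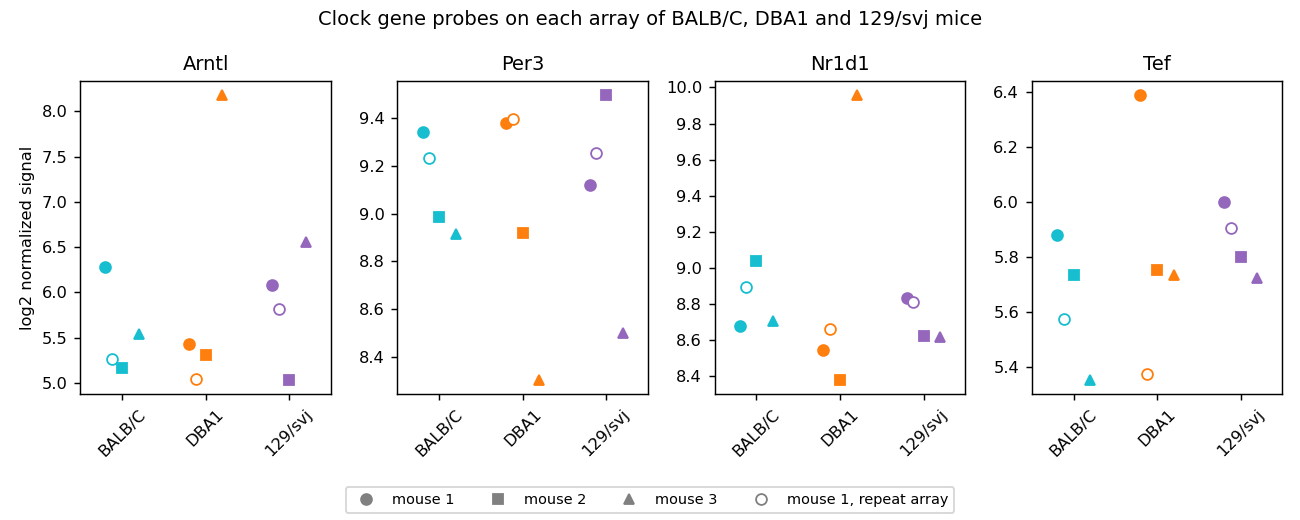
Log2 normalized signal (vertical axis) of the 4 tested clock gene probes on each array of BALB/C, DBA1 and 129/svj mice, with open circles for the repeat array of mouse 1 and a scale of its own in each panel. The strains overlap in every gene, and DBA1 mouse 3 is highest for Arntl at 8.18 and for Nr1d1 at 9.96 and lowest for Per3 at 8.30.

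**Figure D5:**
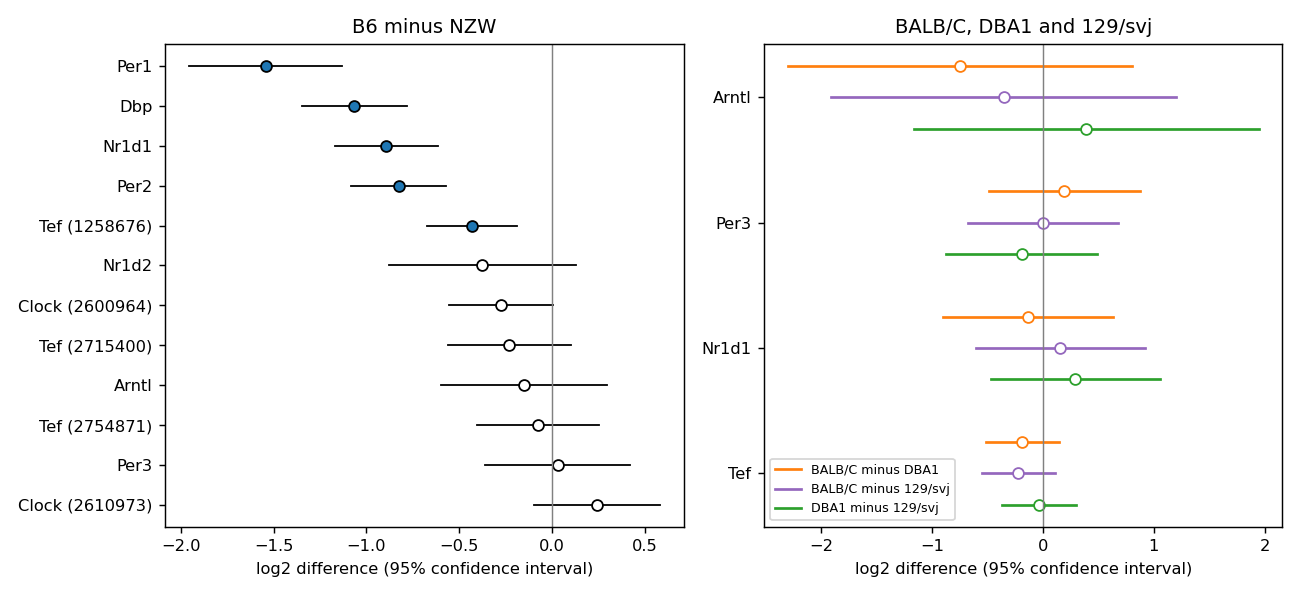
Difference between strains in log2 units with its 95% confidence interval (horizontal axis) for each tested clock gene probe, by comparison, with filled points for those called. Intervals of Per1, Dbp, Nr1d1, Per2 and the bright Tef probe lie below 0 for B6 minus NZW, and those of the other 3 strain comparisons cross 0.

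DBA1 mouse 3 had an Arntl level 1.94 log2 units above its strain mean, a larger deviation than that of 99.9% of the tested probes on its array, with Nr1d1 0.98 above (98.6%) and Per3 0.57 below (91.3%). Its deposited intensity for Arntl was 371.8, against 123.7 to 215.7 on the other 11 arrays of the table. For Nr1d1 it was 1040 against 446.4 to 626.5, and for Per3 396.9 against 542.2 to 819.8. The mouse thus stood apart in the deposited values before any normalization. With it, the pooled standard deviation between mice of a strain was 1.08 for Arntl, 0.51 for Nr1d1, 0.44 for Per3 and 0.15 for Tef, against a median of 0.24 over all tested probes. Without it, these were 0.52, 0.15, 0.37 and 0.16, and Arntl, then detected in 2 of 8 mice, no longer passed the filter. 129/svj mouse 3 had Arntl 0.71 above and Per3 0.56 below its strain mean, with Nr1d1 at -0.07.

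Of the 10 other loop genes and 7 output genes with a row in this table, 4 are named after their values were seen. DBA1 mouse 3 was the highest in each of them, and how the rest lay in it is not reported here. Npas2, a CLOCK paralogue that pairs with ARNTL, was at 6.90 in DBA1 mouse 3 and at 4.73 to 5.16 in the other 8, and the casein kinase Csnk1d, which phosphorylates PER proteins, was at 10.02 against 7.64 to 9.17. Lpin1, a phosphatidate phosphatase, was at 10.74 against 8.57 to 10.26, and Usp2 at 11.001 against 10.18 to 10.72. Npas2 was above background too rarely to be tested. The leukocyte markers of the list summed to 361, 503 and 552 in DBA1 mice 1 to 3, with Ptprc above background in no mouse of the table and the S100a8 probe the brightest. They summed to 490, 195 and 1775 in 129/svj mice 1 to 3 and to 481, 288 and 636 in BALB/C. The proximal tubule markers summed to 42488, 38671 and 31516 in DBA1, 32339, 34502 and 23959 in 129/svj and 35684, 42497 and 39189 in BALB/C, so that mouse 3 was lowest in both DBA1 and 129/svj. The injury marker Timp1 was at 6.76, 7.90 and 7.91 in DBA1, 6.46, 6.27 and 7.95 in 129/svj and 6.09, 5.88 and 6.50 in BALB/C. The part of these markers in the Arntl and Nr1d1 values of that mouse was not tested.

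The repeat arrays of mouse 1 show how far a value moved between 2 arrays of the same mouse. The first arrays were F1 and the repeats F4, so hybridisation and the array sets given below cannot be told apart. Second minus first array, Per3 moved by -0.11, 0.02 and 0.14 in BALB/C, DBA1 and 129/svj, and Nr1d1 by 0.21, 0.12 and -0.02. These are close to the median size over all tested probes, which was 0.17, 0.15 and 0.14. Arntl moved by -1.02, -0.38 and -0.26, and Tef by -0.30, -1.01 and -0.10. The 2 probes near background therefore differed by up to 1 log2 unit between arrays of the same mouse. Arrays F1 and F2 of this table had median signals of 139.1 to 151.6 and arrays F3 and F4, among them DBA1 mouse 3 and each repeat array, 118.5 to 134.2. The sources name no slide. No clock gene was called with this array set as a term or within either set, but several directions turned between the sets. Arntl differed by 0.36, 0.17 and -0.19 within F1 and F2 and by -1.21, -0.79 and 0.42 within F3 and F4, for BALB/C minus DBA1, BALB/C minus 129/svj and DBA1 minus 129/svj in turn. Nr1d1 turned from 0.40 to -0.51 for BALB/C minus DBA1 and from -0.26 to 0.59 for DBA1 minus 129/svj. Per3 turned from -0.14 to 0.19 for BALB/C minus 129/svj, and Tef from 0.17 to -0.26 for DBA1 minus 129/svj.

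In the 3 other lists, the BALB/C, DBA1 and 129/svj table had few probes above background. Of the other loop genes 1 was tested (Csnk1d), of the output genes 4 and of the glucocorticoid-responsive genes 4, and none was called in any comparison. Beside the 5.75%, 4.82% and 4.48% of all tested probes called in the 3 comparisons, marker genes gave 4 calls. Calb1, a distal nephron marker, was higher in BALB/C than in DBA1 (1.25, adjusted p = 0.045). Of 7 proximal tubule markers tested, Slc5a2 was higher in BALB/C (1.53, adjusted p = 0.0035) and in DBA1 (1.23, adjusted p = 0.014) than in 129/svj, and Slc22a6 was lower in BALB/C than in 129/svj (-1.39, adjusted p = 0.037).

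To compare the 2 resistant with the 3 sensitive strains, both tables were normalized together over 19886 probes matched by a search key held by 1 probe in each. Of the clock genes Arntl, Cry1 and the dim Tef probe were matched. Of 6896 tested probes 12.0% (827) were called for resistant minus sensitive, with mice as the replicates. With strain as a random block 105 were called, and 32 by Student's t-test with Benjamini-Hochberg adjustment. A second test asked whether BALB/C minus the mean of DBA1 and 129/svj differed from B6 minus NZW, and 10.3% were called. None of the clock gene probes was called in either comparison. Arntl differed by -0.39 (95% interval -1.27 to 0.49, adjusted p = 0.64) and Tef by -0.23 (-0.44 to -0.01, adjusted p = 0.18) for resistant minus sensitive, the latter -0.10 without background correction (adjusted p = 0.25). Without DBA1 mouse 3 the Arntl difference was -0.14 (adjusted p = 0.76). That second difference, BALB/C table minus B6 table, was -0.44 for Arntl (adjusted p = 0.83) and 0.02 for Tef (adjusted p = 0.97). Per1, Dbp, Nr1d1 and Per2, the 4 genes called between B6 and NZW under every setting, could not enter this comparison.

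Across the 15 mice, the probes whose deviations from the strain means most resembled those of Arntl were D10Ertd641e (r = 0.98), Chic2 (0.98), Acsl1 (0.97), B930098A02Rik (0.95) and Slc30a2 (0.94). The most opposite were Uros (-0.97), scl000911.1_939 (-0.96), Gprasp1 (-0.95), 6030470M02Rik (-0.95) and AW112037 (-0.95). These were the extremes of 6896 probes. Without DBA1 mouse 3 the correlations of the first 5 were 0.92, 0.91, 0.89, 0.79 and 0.80, and those of the opposite 5 were -0.88, -0.90, -0.80, -0.86 and -0.89. Dbp had no matched probe, and for the dim Tef probe used in its place the closest were Pmpcb (0.93), 2310021J05Rik (0.93), 0610009B14Rik (0.89), 5430431D22Rik (0.86) and Sod2 (0.86), and the most opposite Zdhhc16 (-0.97), 2010205A11Rik (-0.91), Aqr (-0.87), Hsd17b12 (-0.82) and Ugt8a (-0.82). The Tef and Arntl probes themselves had r = -0.19. Within B6 and NZW this Tef probe had r = 0.33 with Dbp. Its matched row moved by -1.01 log2 units between the arrays of DBA1 mouse 1. The probes closest to it therefore do not stand for those closest to Dbp. These correlations describe 15 mice that share tables, and none of the named probes belongs to the loop or output lists.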

How the data were processed

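Kidney cortex RNA of 15 mice was read on 18 Illumina Mouse WG-6 BeadChip arrays. Per the file headers, the deposited tables hold, for each probe and array, the mean bead intensity without normalization, the bead number, its standard error and a detection p-value, written by the authors with BeadStudio (version not given in the sources used here). No signal column was left unassigned. With limma's normexp, the background was estimated through the detection p-values and an offset of 16 was added; each table was then quantile normalized on its own and put on the log2 scale. Repeat arrays were averaged into their mouse. A probe entered the test when its detection p was at most 0.05 in 3 or more mice (limma 3.58.1 in R 4.3.3, 1 coefficient per strain, empirical Bayes) with Benjamini-Hochberg adjustment over all tested probes; for the resistant to sensitive comparison this was repeated over matched probes. Rows of the second table were matched by target name without its final letter. The fit was tested on simulated data. The mice of a strain are taken as separate animals from their labels.

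The genes and lists were chosen with earlier results of these data known. Each clock gene probe was to be named, with the called genes of largest difference (at most 4) from each of the loop, output and glucocorticoid lists, and the 5 probes most like and 5 most opposite to the Dbp (here Tef) and Arntl probes; marker genes are described besides, with 1 probe per gene, the brightest. A list of sex-linked and sex-biased genes had 3 probes tested between B6 and NZW and 2 between the other strains, none called. Promoter windows came from RefSeq (GRCm38.p6). Values of some list genes are not reported here. The array set alternatives were chosen after seeing the data. Deviations of same-numbered mice correlated above 0.1 in each of 3 pairs only for DBA1 with 129/svj (0.192, 0.105 and 0.387); over the other strains sharing a table they did so in 1 of 9. No source gives the numbers a meaning across strains. The number of arrays limits the precision.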

Additional observations from a re-analysis of the deposited data

How the results depend on the processing

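For B6 minus NZW, 3157 of 16756 tested probes were called, against 4769 by Student's t-test without adjustment and 1851 by it after Benjamini-Hochberg. With both tables together only 6896 matched probes were tested, and 678 were called. Of the clock gene probes 0 were called there, because the called ones had no match or, for Nr1d1, a key shared by several probes. The calls for BALB/C minus DBA1, BALB/C minus 129/svj and DBA1 minus 129/svj (909, 763 and 709 probes) became 587, 466 and 368 with detection required in every mouse, 2728, 2235 and 1785 by the unadjusted t-test, 399, 318 and 218 after its adjustment, 1718, 1275 and 1198 with the second array as a mouse of its own, and 271, 323 and 249 within arrays F3 and F4. For resistant minus sensitive, 827 became 412 with detection in every mouse, 32 by the adjusted t-test and 105 with strain as a random block, and the unadjusted t-test called 1 clock gene probe, Tef. Leaving out single mice gave 4 to 5 clock gene probes and 1721 to 2615 probes in all for B6 minus NZW, 452 to 1163, 443 to 944 and 426 to 731 for the other 3 strain comparisons and 581 to 936 for resistant minus sensitive, with 0 clock gene probes in each of the last 4. Over the same omissions, the median clock gene spread between mice of B6 and NZW, 0.19, ranged from 0.15 to 0.22. Without background correction it was 0.13. The median spread of the other table, 0.48, ranged from 0.16 to 0.52. The 0.16 was obtained without DBA1 mouse 3, where Arntl also dropped out of the tested probes behind the median. The Tef to Arntl correlation, -0.19, ranged from -0.29 to -0.04. With the mouse number as a replicate block, 4 clock gene probes and 2621 probes in all were called for B6 minus NZW, Tef being lost. The other 3 strain comparisons gave 913, 740 and 678 calls and resistant minus sensitive 785, with 0 clock gene probes in each. None was called in these without the block either, so it had no clock gene call to remove. This includes DBA1 minus 129/svj, whose numbers deviated together. Same-numbered mice of BALB/C, DBA1 and 129/svj also lie in the same array sets. Cry2, Ppara, Mt2, Sgk1 and Nfkbia were lost in the adjusted t-test (adjusted p = 0.0779, 0.0747, 0.0645, 0.117 and 0.159), Nfkbia with no filter (0.0849), and Mt2 and Nfkbia with both tables together (0.404 and 0.201). With both tables together the Mt2 difference was 0.77 (SE 0.47), against 0.86 (SE 0.15) in the main fit. The cause of the lost calls was not tested.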
